A study of Arabidopsis thaliana with 4 samples.

Results

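The cadmium response described here is that of Arabidopsis thaliana roots lacking EIN3 and EIL1, the transcription factors that carry the ethylene signal in the nucleus. One library was made from ein3eil1 seedling roots given 150 µM CdSO4 for 6 h (ein3eil1 Cd) and one from ein3eil1 roots without cadmium (ein3eil1 control), called Cd roots and control roots where Col is not named; the labels name the alleles ein3-1 and eil1-1, 5-day-old seedlings on MS medium, and both primary root and root tip as the tissue. A wild-type pair, Col Cd and Col control, was made with the same dose and time. It is used here to say which models its table also lists and, for models in both tables, in which direction. The labels give no treatment for the control roots and do not say whether those seedlings were transferred or handled in parallel for 6 h, so cadmium and any such handling cannot be told apart in the ratios. The deposited ein3eil1 table holds 1001 gene models that the authors called different between the 2 ein3eil1 libraries, and the 952 models with 1 RPKM or more (reads scaled to model length and library size) in either library are the members. Of these, 669 have no row in the Col table and 283 do; both tables together list 1518 models. Each condition has 1 library, so a difference has no replicate check, and the intervals given are 95% exact counting intervals that cover counting error only.

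EIN3 (AT3G20770) and EIL1 (AT2G27050) have 0 rows in either table. An unlisted gene has no value here, so the genotype could not be checked by expression. Absence from the Col table means that the authors did not call the model in Col roots, which is not a measurement of no response there. No ratio of Col roots can be set beside the 669 models, and no difference between the genotypes was tested for them.

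Ethylene is made from methionine through ACC and is sensed by receptors such as ETR2, which hold the pathway off until ethylene binds. EIN3 and EIL1 are then stabilised and switch on target genes, so the double mutant is blind to ethylene in nearly all known responses. Cadmium binds thiols. Plants chelate it with glutathione and phytochelatins, which draws on sulfate assimilation, and cadmium is also known to disturb iron uptake, protein folding and redox balance.

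Among the 952 models, 594 had at least 2-fold higher RPKM in ein3eil1 Cd roots (62.4% of the models) and 358 at least 2-fold lower (37.6%). Among the 669 models absent from the Col table, 437 were higher (65.3%) and 232 lower (34.7%). Absence thus held for 437 of the 594 higher and 232 of the 358 lower models, the background for each count of absent genes below. The table lists no model within 2-fold, so every member is in 1 of these classes by construction and the split by direction is the background for each function below. Centring the ratios on the median of all listed models, which itself stands at 1.16 on the log2 scale because the middle of the distribution is not listed, leaves 133 higher and 358 lower, a share of 27.1% higher. The lower count cannot change there, because a positive value is subtracted. In the gene annotation, 2.07% of 27562 protein-coding loci had a listed model that was higher and 1.25% one that was lower.

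Ratios of the absent models were smaller than those of the shared ones, which the authors had to call in both pairs of libraries. The part of that selection in the differences given here was not tested. The median size of the log2 ratio was 1.37 for models absent from the Col table and 1.66 for models in both tables, and 398 of the 669 absent models were under 1.5 in size on that scale, or 59.5% against 39.9% of the shared ones. They also had fewer reads: the median count in the library with more reads was 121 for absent models and 314 for shared ones. Of the absent models, 126 differed by 4-fold or more, 90 higher and 36 lower.

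**Figure D1:**
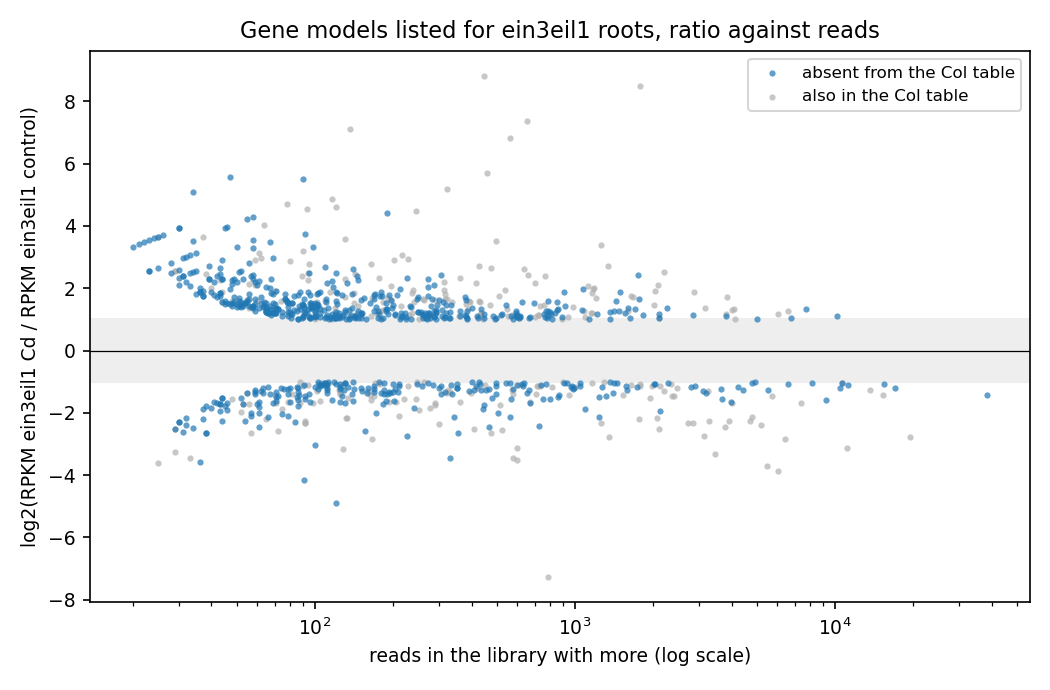
Ratio of ein3eil1 Cd to ein3eil1 control RPKM (log2, vertical axis) against the reads of the library with more (log scale), for members with reads in both libraries; blue points are absent from the Col table and grey points are also in it. The blue points crowd along the 2-fold lines and at low read counts, and the grey band between -1 and 1 holds none because the authors list none there.

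The 358 lower models took 0.944% of all reads in ein3eil1 Cd roots and 2.66% in ein3eil1 control roots, while the 594 higher models took 1.45% and 0.551%. The member with most reads, AAC1 in its model AT3G08580.2 (an ADP/ATP carrier of the mitochondrial inner membrane, chosen after its value was seen), had 14097 reads in ein3eil1 Cd roots and 38393 in ein3eil1 control roots and was 2.69-fold lower (2.64 to 2.75). That model is absent from the Col table, and a shift of reads between models of the AAC1 locus was not tested.

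The descriptions were sorted into 33 functions, the first match deciding. Functions with a larger share on the higher side than the 62.4% of all models included photosynthesis and plastid (11 of 12 higher), translation and RNA processing (12 of 14), heat shock proteins and chaperones (18 of 22), calcium (8 of 10), glycosyltransferases (14 of 18), hormone metabolism (9 of 12), transporters (20 of 27) and glutathione S-transferases (11 of 15). Functions with a larger share on the lower side than the 37.6% of all models included ribosomal proteins (15 of 19 lower), aquaporins (4 of 4), mitochondrion and carbon metabolism (5 of 8) and, near evenly split, protein kinases (12 of 25) and metal handling (7 of 14). Transcription factors (45 higher, 22 lower), cell wall (35 and 23), lipid (22 and 12) and cytochrome P450 (17 and 12) stood near the background. A further 130 models have no known function and 262 fall under no group.

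**Figure D2:**
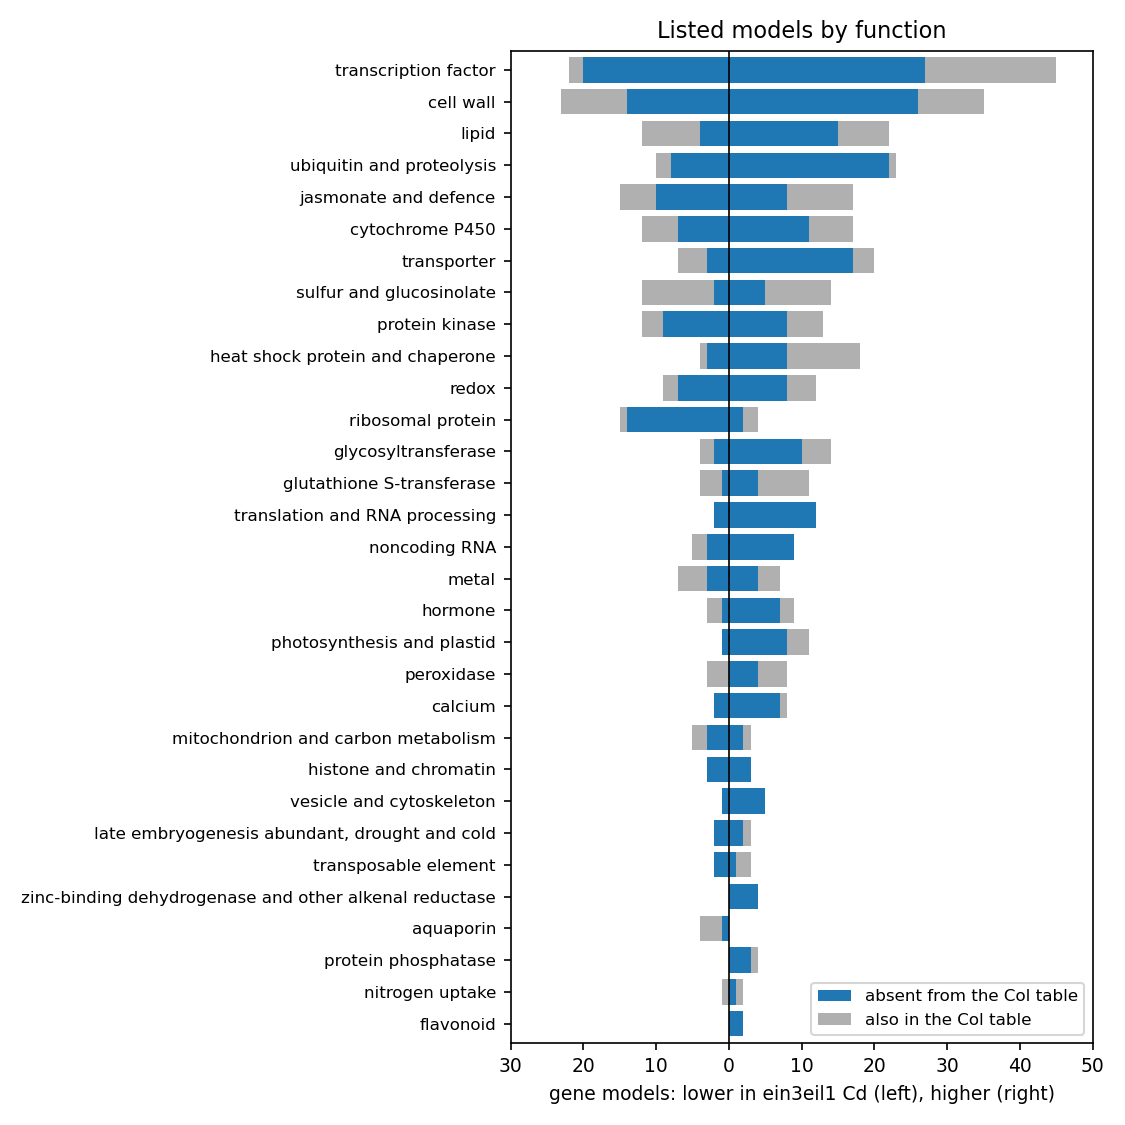
Number of gene models per function, lower in ein3eil1 Cd roots to the left of 0 and higher to the right; blue is absent from the Col table and grey is also in it. Ribosomal proteins are the largest function with most models on the left, and translation and RNA processing is made up of absent models alone.

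Among absent models with 10 RPKM or more, ECS1 had the largest ratio. ECS1, a small secreted protein whose level differs between Arabidopsis accessions, had 189 reads (16.2 RPKM) in ein3eil1 Cd roots and 9 reads (0.761 RPKM) in ein3eil1 control roots, 21.2-fold higher (10.95 to 47.2). The others among the 12 highest were between 3.30-fold and 5.43-fold higher. DFR, the reductase that commits flavonoids to anthocyanin, came next and is given below with its pathway. ROF2, an FKBP-type co-chaperone of heat-stressed cells, had 1740 reads (48.6 RPKM) in ein3eil1 Cd roots and 328 (9.06 RPKM) in ein3eil1 control roots. AT2G41730, a protein of unknown function, had 287 reads in Cd and 68 in control roots.

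The enzymes in this set act in lignin, carbon and sulfur amino acid metabolism. CCR1, which makes the aldehydes that become lignin, had 273 reads in ein3eil1 Cd roots and 67 in ein3eil1 control roots, 4.12-fold higher (3.14 to 5.47). ICL, the isocitrate lyase of the glyoxylate cycle, had 1070 reads in Cd and 275 in control roots, 3.94-fold higher (3.44 to 4.51). MGL, which breaks methionine down, had 1484 reads in Cd and 405 in control roots, 3.71-fold higher (3.32 to 4.15). All 3 are metabolic enzymes, and the counting intervals of these ratios lie wholly above 2-fold. The CCR1 locus has 7 reference transcripts, so a shift of reads between its models cannot be told apart from a change of the locus.

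The remaining loci of that set are of other kinds. The spliceosomal RNA U12 had 120 reads in ein3eil1 Cd roots and 33 in ein3eil1 control roots. AT1G09310 (domain of unknown function DUF538) had 908 reads in Cd and 252 in control roots, and AT2G36885 (unknown) had 180 reads in Cd and 50 in control roots. NOI, a protein related to the immune regulator RIN4, had 272 reads in Cd and 81 in control roots in its model AT5G55850.3. MYB43, a MYB factor, was lowest of the 12 at 3.30-fold higher (2.68 to 4.10), with 379 reads in ein3eil1 Cd roots and 116 in ein3eil1 control roots.

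The 12 lowest absent models with 10 RPKM or more held several genes known to be switched on when oxygen is short: PCO2, AT4G33560, PCO1, AT3G27220, PDC1, HRA1 and NIP2;1 are 7 of the 12 and are given below. The remaining 5 were AT1G19900 (a glyoxal oxidase relative, 56 reads in ein3eil1 Cd roots and 354 in ein3eil1 control roots, 6.25-fold lower), BPS3 (a BYPASS1-like protein, 127 reads in Cd and 560 in control roots), DDF1 (an AP2 factor of the CBF family, 78 reads in Cd and 343 in control roots), AT5G28610 (no function given, 124 reads in Cd and 505 in control roots) and FLA13 (a fasciclin-like arabinogalactan protein of the cell surface, 292 reads in Cd and 1096 in control roots). BPS3 was 4.36-fold lower (3.59 to 5.33) and FLA13 3.71-fold lower (3.26 to 4.24).

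**Figure D3:**
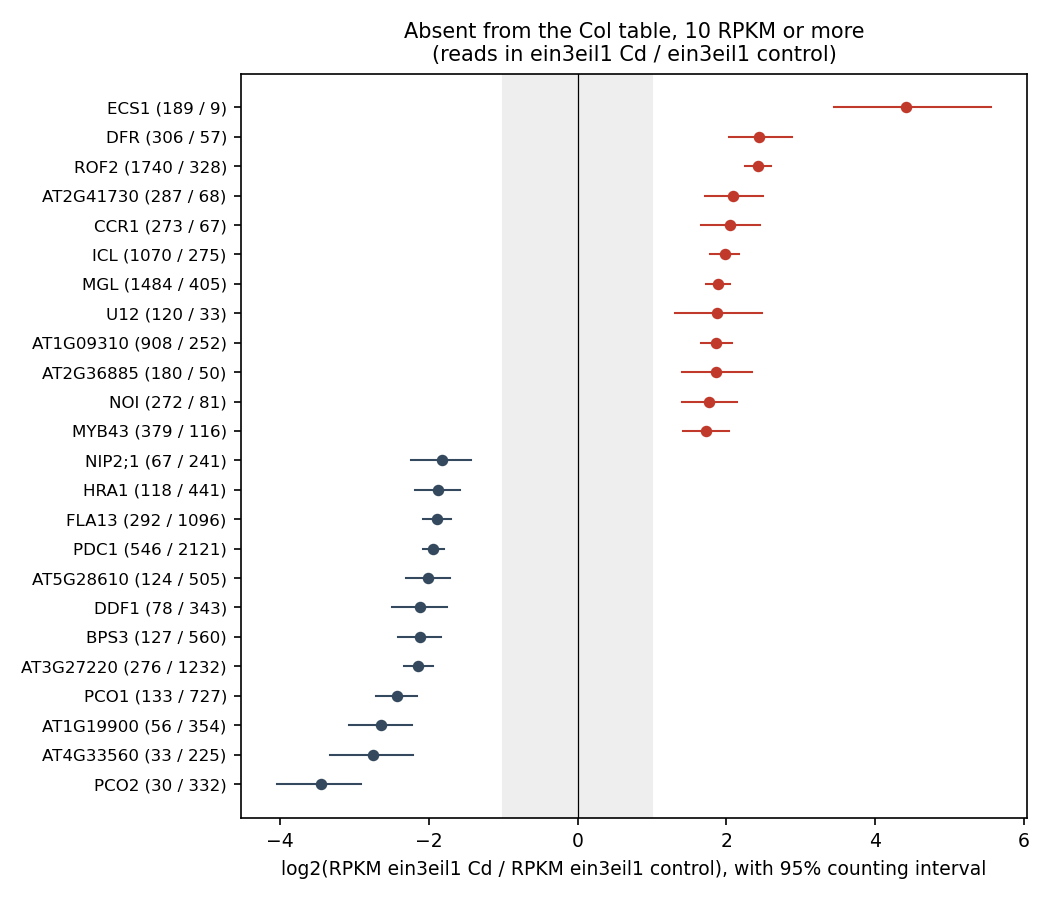
Log2 ratio of ein3eil1 Cd to ein3eil1 control RPKM with its 95% counting interval for the 12 highest and 12 lowest models absent from the Col table with 10 RPKM or more; reads in ein3eil1 Cd and ein3eil1 control stand in brackets. ECS1 at 4.41 and PCO2 at -3.45 end the range, and all 24 intervals lie outside the grey 2-fold band.

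When oxygen falls, plants stabilise a group of ethylene response factors that switch on fermentation, sucrose breakdown and the plant cysteine oxidases PCO1 and PCO2. Those oxidases in turn mark the same factors for destruction. A list of 48 such genes, entered from knowledge of the core low-oxygen set after the table had been seen, had 20 members lower in ein3eil1 Cd roots (41.7% of the list, against 1.25% of annotated loci), 1 higher, and 27 not listed. Of the 20 lower members, 17 are absent from the Col table, against 232 of all 358 lower models. The median log2 ratio of the 21 listed members was -1.57, and their summed level was 246 RPKM in ein3eil1 Cd roots and 508 RPKM in ein3eil1 control roots.

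PCO2 had 30 reads (1.44 RPKM) in ein3eil1 Cd roots and 332 (15.8 RPKM) in ein3eil1 control roots, 10.9-fold lower (7.52 to 16.5). PCO1 had 133 reads (6.66 RPKM) in ein3eil1 Cd roots and 727 (36.0 RPKM) in ein3eil1 control roots, 5.40-fold lower (4.49 to 6.55). Both oxidases were thus well read in untreated mutant roots. AT4G33560, a small wound-responsive protein, had 33 reads in ein3eil1 Cd roots and 225 in ein3eil1 control roots, and AT3G27220, a kelch-repeat protein, had 276 reads in Cd and 1232 in control roots. AT2G17850, a rhodanese-domain protein, had 0 reads in ein3eil1 Cd roots and 17 in ein3eil1 control roots, at least 5.60-fold lower when 0 is set to a floor of 3 reads in that library, while its counting interval begins at 4.08-fold.

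The listed fermentation and carbon members were lower. PDC1, the pyruvate decarboxylase that opens ethanol fermentation, had 546 reads (15.1 RPKM) in ein3eil1 Cd roots and 2121 (58.1 RPKM) in ein3eil1 control roots, 3.84-fold lower (3.49 to 4.23). SUS4, a sucrose synthase, had 439 reads in Cd and 1240 in control roots, 2.79-fold lower (2.50 to 3.12). NIP2;1, an aquaporin-family channel, had 67 reads in Cd and 241 in control roots, 3.56-fold lower (2.70 to 4.73). HB1, the haemoglobin that removes nitric oxide, had 283 reads in Cd and 632 in control roots, 2.21-fold lower (1.92 to 2.55). ADH1, PDC2 and SUS1, of fermentation and sucrose breakdown, are not listed.

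Regulators of the low-oxygen set were lower too. HRA1, which restrains the ethylene response factors of this response, had 118 reads in ein3eil1 Cd roots and 441 in ein3eil1 control roots, 3.70-fold lower (3.01 to 4.57). LBD41, a LOB-domain factor, had 255 reads in Cd and 755 in control roots, 2.93-fold lower (2.54 to 3.39). HRE1, itself an ethylene response factor, had 31 reads in Cd and 92 in control roots in its second model, 2.93-fold lower (1.93 to 4.56), an interval that reaches below 2-fold. ETR2, an ethylene receptor in both this list and the ethylene list, had 36 reads in Cd and 95 in control roots. PHI-1 had 268 reads in ein3eil1 Cd roots and 803 in ein3eil1 control roots, AT4G27450 had 131 reads in Cd and 445 in control roots, AT4G10270 had 46 reads in Cd and 111 in control roots, and CYP707A3, which breaks abscisic acid down, had 62 reads in Cd and 130 in control roots. AT1G33055 (83 reads in Cd and 245 in control roots), AT1G19530 (60 reads in Cd and 163 in control roots) and SAD6 (52 reads in Cd and 579 in control roots) are the 3 lower members also in the Col table. The lipocalin TIL was the exception to the direction, with 2103 reads (118 RPKM) in ein3eil1 Cd roots and 934 (51.6 RPKM) in ein3eil1 control roots, 2.28-fold higher (2.11 to 2.46).

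**Figure D4:**
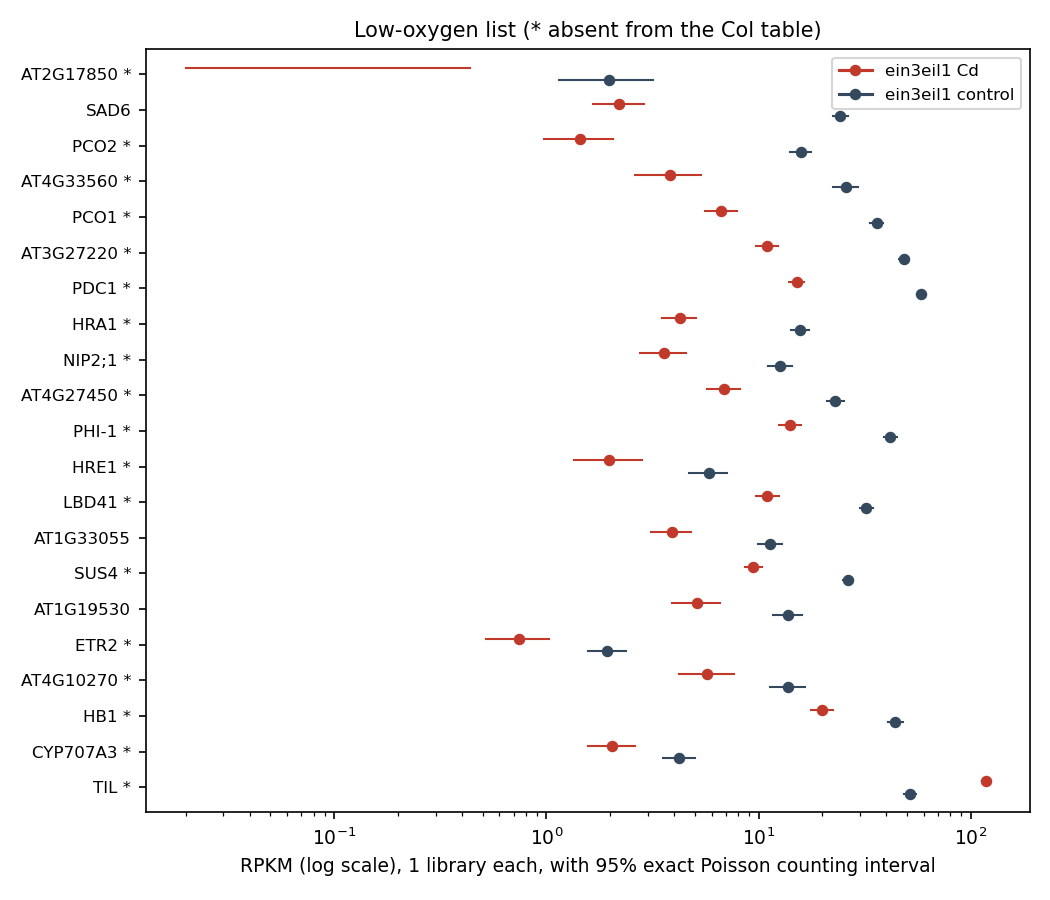
RPKM in ein3eil1 Cd (red) and ein3eil1 control (dark) roots on a log scale for the 21 listed members of the low-oxygen list, with 95% exact Poisson counting intervals; the line without a point is 0 reads and runs on to the left. The red value lies left of the dark one in 20 rows, and TIL, at 118 RPKM in ein3eil1 Cd roots, is the reverse.

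The promoter of NIP2;1 is shown because it matches a loosened pattern of the low-oxygen element (AAACCA, any 3 bases, then GC), letters chosen after the table had been seen. With the middle 3 bases left free, a match need not be the element itself. Of the promoters of the 20 lower members, 3 hold the loosened pattern on either strand, which is how every motif here was searched (LBD41, NIP2;1 and AT4G10270), against 266 of 27561 annotated promoters (0.965%). Each sequence printed here is the 300 bases before the gene start in the RefSeq annotation of TAIR10.1, read 5′ to 3′ on the gene's strand, with the match in capitals.
NIP2;1, chr2:14515989-14516288, minus strand: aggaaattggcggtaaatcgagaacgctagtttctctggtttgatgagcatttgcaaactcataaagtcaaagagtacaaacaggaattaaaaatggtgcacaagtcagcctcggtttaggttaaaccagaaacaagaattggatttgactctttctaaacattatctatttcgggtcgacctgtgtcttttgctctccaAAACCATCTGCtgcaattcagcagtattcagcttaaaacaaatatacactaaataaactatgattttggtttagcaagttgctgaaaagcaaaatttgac
The match begins 100 bases before the gene start. The other 17 lower members, PCO1, PCO2 and PDC1 among them, have no such letters in this window.

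Anthocyanin synthesis and light protection formed a group on the higher side. The list of 22 genes had 9 members higher in ein3eil1 Cd roots (40.9% of the list, against 2.07% of annotated loci) and none lower. Of the 9, 7 are absent from the Col table, against 437 of all 594 higher models. DFR had 306 reads (13.4 RPKM) in ein3eil1 Cd roots and 57 (2.47 RPKM) in ein3eil1 control roots, 5.43-fold higher (4.08 to 7.34). UGT75C1, which glucosylates anthocyanin, had 133 reads (4.80 RPKM) in ein3eil1 Cd roots and 30 (1.07 RPKM) in ein3eil1 control roots, 4.48-fold higher (2.999 to 6.91). UF3GT, which adds xylose to anthocyanin glucosides, had 65 reads in Cd and 25 in control roots, 2.63-fold higher (1.63 to 4.35). AT5MAT, the malonyltransferase that caps the pigment, had 45 reads in Cd and 3 in control roots, 15.2-fold higher (4.87 to 76.3), a log2 ratio of 3.92 that is 1.40 when 1 RPKM is added to both values. These 4 genes act from DFR onward in the pathway. Of the other steps, CHS, F3H, F3'H and LDOX are not listed.

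The other listed members are regulators and light-response genes. MYB12, an activator of flavonol synthesis, had 594 reads (24.3 RPKM) in ein3eil1 Cd roots and 250 (10.12 RPKM) in ein3eil1 control roots, 2.403-fold higher (2.07 to 2.80). HYH, the HY5 homologue of light signalling, was higher in each of its 3 listed models, the deepest with 150 reads in ein3eil1 Cd roots and 49 in ein3eil1 control roots. MYB75, the main anthocyanin activator, had 15 reads in ein3eil1 Cd roots and 0 in ein3eil1 control roots, but at 0.977 RPKM it falls outside the 1 RPKM rule. ELIP1 and ELIP2, proteins that protect greening plastids and are also in the Col table, had 2858 and 1158 reads in ein3eil1 Cd roots, against 781 and 325 in ein3eil1 control roots. GUN4, a regulator of chlorophyll synthesis, had 45 reads in ein3eil1 Cd roots and 16 in ein3eil1 control roots.

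Genes of photosynthetic tissue were also higher, and their part in the light list was not tested. Of 9 markers of that tissue, 3 were higher (33.3%, against 2.07% of annotated loci) and 6 were not listed. The 3 are all absent from the Col table, with a summed level of 75.0 RPKM in ein3eil1 Cd roots and 31.4 RPKM in ein3eil1 control roots. RBCS1A, a small subunit of Rubisco, had 807 reads in ein3eil1 Cd roots and 360 in ein3eil1 control roots, RBCS3B had 169 reads in Cd and 54 in control roots, and LHCB2.1, a light-harvesting protein, had 331 reads in Cd and 141 in control roots. Reads of near-identical copies of these families may be divided in ways the table does not show. CLH1, chlorophyllase, had 92 reads in ein3eil1 Cd roots and 7 in ein3eil1 control roots, 13.3-fold higher (6.199 to 33.99), and GLT1, the glucose exporter of plastids, had 200 reads in Cd and 73 in control roots in its second model. AT5G14260, a Rubisco methyltransferase relative, had 96 reads in Cd and 28 in control roots.

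**Figure D5:**
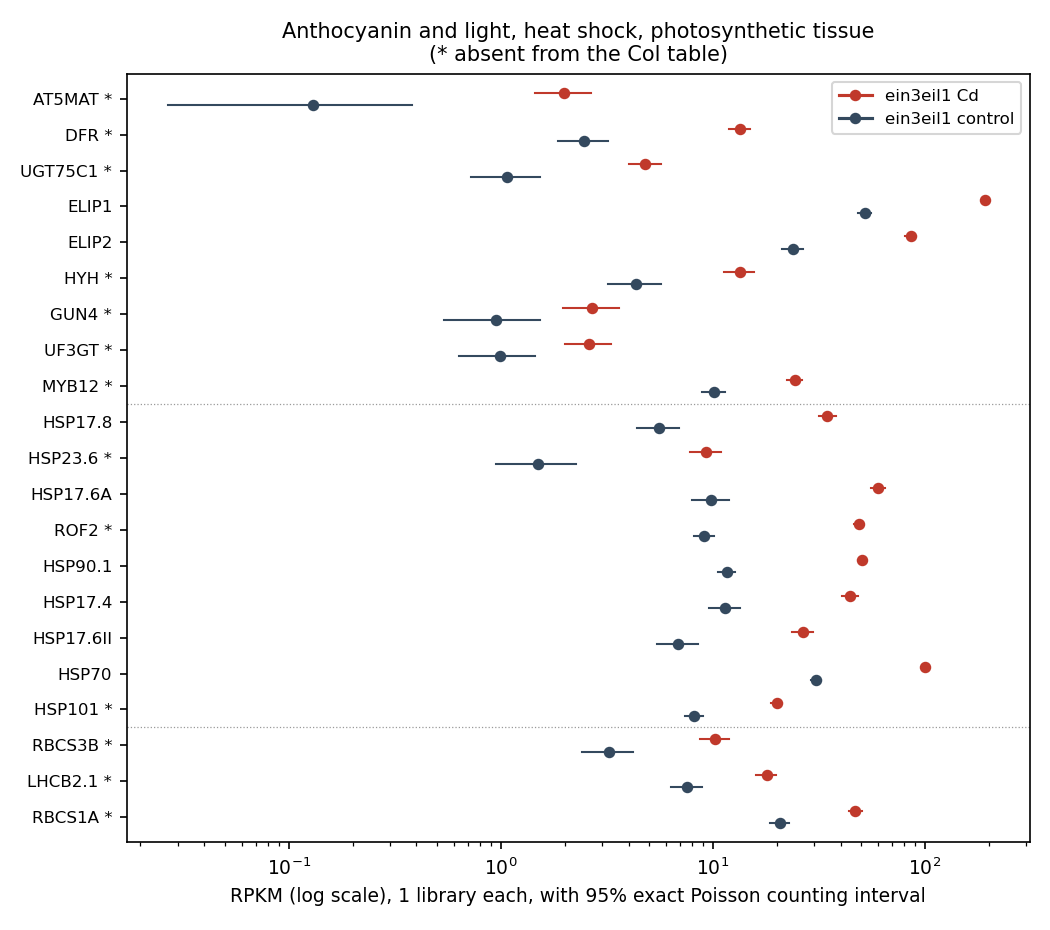
RPKM in ein3eil1 Cd (red) and ein3eil1 control (dark) roots on a log scale with 95% exact Poisson counting intervals, for the listed members of the anthocyanin and light list (top block), the heat shock list (middle) and the markers of photosynthetic tissue (bottom); an asterisk marks genes absent from the Col table. The red value lies right of the dark one in every row, with MYB12 at 24.3 against 10.12 RPKM and AT5MAT at 1.98 against 0.131 RPKM in the top block.

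The G-box CACGTG, the site of HY5-type and other bZIP and bHLH factors, occurs in 4 of the 9 promoters of the higher light-list members (DFR, UF3GT, ELIP1 and MYB12) and in 1946 of all 27561 promoters (7.06%). The promoters of DFR and UF3GT are shown, as the pigment enzymes among the 4, with the G-box in capitals.
DFR, chr5:17166033-17166332, minus strand: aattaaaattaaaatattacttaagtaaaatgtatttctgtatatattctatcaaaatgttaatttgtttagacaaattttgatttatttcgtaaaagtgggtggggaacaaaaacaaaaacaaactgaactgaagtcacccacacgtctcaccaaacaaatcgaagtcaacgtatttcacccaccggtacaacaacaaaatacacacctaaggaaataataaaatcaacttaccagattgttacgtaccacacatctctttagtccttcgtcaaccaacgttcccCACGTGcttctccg
UF3GT, chr5:21938397-21938696, minus strand: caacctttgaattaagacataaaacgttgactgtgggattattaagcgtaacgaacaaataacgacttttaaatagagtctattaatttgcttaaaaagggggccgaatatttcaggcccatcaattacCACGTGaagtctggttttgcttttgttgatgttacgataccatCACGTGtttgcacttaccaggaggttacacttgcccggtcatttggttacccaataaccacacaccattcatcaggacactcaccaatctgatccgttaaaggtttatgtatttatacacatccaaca
UF3GT holds 2 copies and DFR holds 1, which begins 14 bases before the annotated start. Over all members, the G-box was found before 25 of 415 loci that were absent from the Col table and higher (6.02%) and before 29 of 222 that were absent and lower (13.1%).

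Heat shock proteins keep damaged proteins soluble and refold them. The list of 17 had 9 members higher in ein3eil1 Cd roots (52.9% of the list, against 2.07% of annotated loci), none lower, and 8 not listed. The median log2 ratio was 2.11 among the 9 listed. HSP23.6, ROF2 and HSP101 of these are absent from the Col table. HSP23.6, a small heat shock protein of mitochondria, had 140 reads (9.26 RPKM) in ein3eil1 Cd roots and 23 (1.504 RPKM) in ein3eil1 control roots, 6.16-fold higher. HSP101, the disaggregase, had 1064 reads (20.01 RPKM) in ein3eil1 Cd roots and 439 (8.16 RPKM) in ein3eil1 control roots, 2.45-fold higher (2.19 to 2.75). HSP17.8, a cytosolic small heat shock protein also in the Col table, had 475 reads in Cd and 77 in control roots, 6.24-fold higher (4.90 to 8.04). The others shared with the Col table were HSP17.6A (637 reads in ein3eil1 Cd roots and 105 in ein3eil1 control roots), HSP17.6II (313 reads in Cd and 82 in control roots), HSP70 (3851 reads in Cd and 1186 in control roots), HSP90.1 (2089 reads in Cd and 489 in control roots) and HSP17.4. AT1G59860, an HSP20-like protein of the wider function, had 105 reads in Cd and 29 in control roots.

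The 3 absent chaperone models on the lower side were Cpn60beta3 (a plastid chaperonin, 11 reads in ein3eil1 Cd roots and 54 in ein3eil1 control roots in its second model), CPN60B and Hsp70-15, the last pair named after their values were seen. The triple heat shock element (GAA, any 2 bases, TTC, any 2 bases, GAA) occurs before HSP17.4 and HSP90.1 among the 9 higher list members and before 135 of 27561 genes (0.490%). The promoter of HSP17.4 is shown because it holds the element at 2 places.
HSP17.4, chr3:16984868-16985167, minus strand: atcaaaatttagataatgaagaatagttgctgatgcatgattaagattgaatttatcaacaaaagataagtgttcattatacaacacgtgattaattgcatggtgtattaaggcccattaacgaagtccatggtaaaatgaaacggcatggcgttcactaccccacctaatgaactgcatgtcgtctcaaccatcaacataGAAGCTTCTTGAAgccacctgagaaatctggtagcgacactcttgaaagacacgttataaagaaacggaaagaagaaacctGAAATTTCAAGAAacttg
HSP17.4 itself had 538 reads (44.2 RPKM) in ein3eil1 Cd roots and 140 (11.4 RPKM) in ein3eil1 control roots, 3.89-fold higher (3.22 to 4.72).

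Genes of protein folding in the endoplasmic reticulum were listed in both directions. Of 19 list members, 4 were higher (21.1% of the list, against 2.07% of annotated loci) and 1 lower (5.26%, against 1.25%). The other 14 are not listed. BIP3, the stress-induced lumenal HSP70, had 78 reads (2.23 RPKM) in ein3eil1 Cd roots and 3 (0.0846 RPKM) in ein3eil1 control roots, 26.3-fold higher (8.67 to 130). SAR1A, a GTPase of vesicle budding, had 37 reads in ein3eil1 Cd roots and 3 in ein3eil1 control roots, and SEC31A, a coat protein of the same vesicles, had 61 reads in Cd and 7 in control roots. NAC103, a factor downstream of the stress sensor, was the lower one and the only listed member absent from the Col table, with 24 reads in Cd and 59 in control roots. BIP3 is shown because its promoter holds the endoplasmic reticulum stress element (CCAAT, any 10 bases, then CACG) in 2 places, both on the opposite strand, as against 205 of 27561 promoters with any (0.744%).
BIP3, chr1:2931851-2932150, minus strand: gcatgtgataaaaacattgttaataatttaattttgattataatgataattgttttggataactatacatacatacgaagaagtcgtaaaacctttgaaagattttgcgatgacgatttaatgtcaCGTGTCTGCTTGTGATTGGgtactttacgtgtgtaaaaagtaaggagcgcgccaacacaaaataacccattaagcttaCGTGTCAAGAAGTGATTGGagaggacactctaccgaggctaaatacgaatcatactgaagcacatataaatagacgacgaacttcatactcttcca
BIP1, BIP2 and BZIP60 are not listed.

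Listed ribosomal proteins were mostly lower, while listed RNA-binding and translation factors were mostly higher. Of the 19 listed ribosomal protein models, 15 were lower in ein3eil1 Cd roots. Of those 15, 14 are absent from the Col table, against 232 of all 358 lower models. The median log2 ratio of the 16 absent ribosomal models was -1.19. AT1G56045, ribosomal protein L41, had 3034 reads (537 RPKM) in ein3eil1 Cd roots and 9252 (1620.4 RPKM) in ein3eil1 control roots, 3.02-fold lower (2.89 to 3.14). AT5G46430, an L32e protein, had 207 reads in Cd and 670 in control roots in its first model. AT1G48830 (S7e) had 18 reads in Cd and 79 in control roots, and RP1 (L3) had 15 reads in Cd and 66 in control roots in its model AT1G43170.7. The read-rich members in absolute counts included ATL5 and AT4G18100, chosen after their values were seen, with 7262 and 7255 reads in ein3eil1 Cd roots, against 16962 and 15404 in ein3eil1 control roots. Ribosomal proteins are encoded by small families of near-identical genes, so reads may be shared between copies. The 19 models come from 17 loci, and the 16 absent ones from 14. RP1 has 9 reference transcripts, and AT5G46430 and AT1G48830 have 2 each. At these loci a shift of reads between models cannot be told apart from a change of the locus.

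Of 14 models of RNA-binding and translation factors, 12 were higher and 2 lower. All 14 are absent from the Col table, against 669 of all 952 members. PAB8, a poly(A)-binding protein, had 212 reads (4.91 RPKM) in ein3eil1 Cd roots and 55 (1.26 RPKM) in ein3eil1 control roots, 3.90-fold higher (2.89 to 5.34). GRP2, a glycine-rich RNA-binding protein, had 248 reads (19.9 RPKM) in ein3eil1 Cd roots and 77 (6.11 RPKM) in ein3eil1 control roots, 3.26-fold higher (2.51 to 4.26). AT1G57720, a subunit of elongation factor 1B, had 39 reads in Cd and 6 in control roots in its second model, and AT5G66010, an RNA-binding protein, had 53 reads in Cd and 11 in control roots. Each of these 4 loci has several transcripts in the reference annotation, so a shift of reads between models of 1 locus cannot be told apart from a change of the locus.

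Genes of sulfur supply hold the highest ratios of the table and are nearly all in the Col table as well. Of the 16 genes of sulfur limitation, 14 were higher (87.5% of the list, against 2.07% of annotated loci). LSU4 alone of these is absent from the Col table. LSU4, a small protein that marks low sulfur, had 60 reads (6.80 RPKM) in ein3eil1 Cd roots and 14 (1.57 RPKM) in ein3eil1 control roots, 4.33-fold higher (2.39 to 8.40). Its relative LSU2 had 498 reads in Cd and 44 in control roots. The 5 highest ratios of the table with 10 RPKM or more belonged to LSU1 (447 reads in ein3eil1 Cd roots and 1 in ein3eil1 control roots), BGLU28 (1772 reads in Cd and 5 in control roots), the defensin-like AT4G11393 (653 reads in Cd and 4 in control roots), SDI1 (564 reads in Cd and 5 in control roots) and LSU3 (458 reads in Cd and 9 in control roots). The 5 lowest belonged to CSLB05, a cellulose synthase-like protein (5 reads in ein3eil1 Cd roots and 788 in ein3eil1 control roots), CYP79F2 (411 reads in Cd and 6010 in control roots), MAM1 (412 reads in Cd and 5465 in control roots), CER4 (52 reads in Cd and 596 in control roots) and SAD6 (52 reads in Cd and 579 in control roots).

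Glucosinolates are sulfur-rich defence compounds, and the aliphatic branch starts from methionine. Of the 21 genes in that list 15 were lower (71.4%, against 1.25% of annotated loci) and none higher, all 15 also in the Col table. MAM1, which lengthens the methionine chain, was 13.1-fold lower (11.9 to 14.5). CYP79F2, which makes the aldoxime, was 14.5-fold lower (13.1 to 16.0), IPMI1 9.98-fold lower and GSTF11 8.82-fold lower. SOT16, the sulfotransferase that prefers indole glucosinolates, is absent from the Col table and had 2280 reads (101 RPKM) in ein3eil1 Cd roots and 5531 (241 RPKM) in ein3eil1 control roots, 2.399-fold lower (2.28 to 2.52). AOP2, named for a side-chain enzyme of aliphatic glucosinolates, had 6 reads in Cd and 38 in control roots and is absent from the Col table. The reference annotation gives this locus 0 transcripts, and whether it makes a working enzyme was not tested. NSP5, a nitrile specifier protein that acts when glucosinolates are broken down, was higher, with 2831 reads in Cd and 1290 in control roots, 2.22-fold (2.08 to 2.37).

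The listed iron uptake genes were lower. The iron deficiency list of 24 had 5 members lower (20.8% of the list, against 1.25% of annotated loci), none higher, and 19 not listed. Of the 5, 3 are absent from the Col table, against 232 of all 358 lower models. S8H, which makes the coumarin fraxetin, had 4 reads (0.222 RPKM) in ein3eil1 Cd roots and 121 (6.63 RPKM) in ein3eil1 control roots, 29.9-fold lower (11.4 to 112). CYP82C4, the next coumarin enzyme, had 42 reads in ein3eil1 Cd roots and 172 in ein3eil1 control roots, 4.05-fold lower (2.88 to 5.82). BHLH38, a factor that drives iron uptake with FIT, had 53 reads in Cd and 125 in control roots, 2.33-fold lower (1.68 to 3.28). FRO2, the ferric reductase, which is shared with the Col table, had 362 reads in Cd and 2103 in control roots, 5.74-fold lower (5.14 to 6.44). FIT and F6'H1 are not listed.

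Other metal genes went both ways. MTPA1, a cation efflux transporter, had 30 reads in ein3eil1 Cd roots and 2 in ein3eil1 control roots, 15.2-fold (3.85 to 131), and AT4G12290, a copper amine oxidase, had 103 reads in Cd and 38 in control roots. AT5G52710, a copper transport family protein, had 5 reads in ein3eil1 Cd roots and 91 in ein3eil1 control roots, 18.0-fold lower (7.44 to 56.7). AT3G58060, another cation efflux protein, had 6 reads in Cd and 38 in control roots. These 4 models are absent from the Col table, and 3 of them rest on fewer than 10 reads in 1 library.

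Of 19 genes of glutathione, phytochelatin and vacuolar cadmium storage, 3 were higher and 1 lower, and 15 are not listed. These are 15.8% of the list higher, against 2.07% of annotated loci, and 5.26% lower, against 1.25%. ABCC2, a vacuolar pump for phytochelatin complexes, had 101 reads in ein3eil1 Cd roots and 40 in ein3eil1 control roots in its model AT2G34660.2, 2.55-fold higher (1.75 to 3.78). This model stood at 1.12 RPKM in ein3eil1 Cd roots, and its log2 ratio of 1.35 is 0.560 when 1 RPKM is added to both values. The ABCC2 locus has 3 reference transcripts, so a shift of reads between its models cannot be told apart from a change of the locus. MT3, a metallothionein, had 766 reads (103 RPKM) in ein3eil1 Cd roots and 367 (48.8 RPKM) in ein3eil1 control roots, 2.11-fold higher (1.86 to 2.397). HMA3, the pump that moves cadmium into the vacuole in some accessions, had 27 reads in Cd and 63 in control roots, 2.31-fold lower (1.45 to 3.77). GSH1, GSH2, PCS1 and ABCC1 are not listed. MT2A had 719 reads in ein3eil1 Cd roots and 333 in ein3eil1 control roots, 2.18-fold higher, and is listed in the Col table in the other direction.

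In the ethylene list, 11.5% of the members were lower, against 1.25% of annotated loci, and 23 of the 26 members are not listed. The 3 that are were lower: ACS5, an ACC synthase (3 reads in ein3eil1 Cd roots and 33 in ein3eil1 control roots), ETR2 (36 reads in Cd and 95 in control roots, 2.61-fold lower, 1.76 to 3.94) and EDF4, also called RAV1 (1298 reads in Cd and 2902 in control roots, 2.21-fold lower, 2.07 to 2.36). ETR2 and EDF4 are absent from the Col table, and ERF1, EBF1 and EBF2, known direct targets of EIN3, are not listed. The letters ATGNANCT were searched for the EIN3 site. With the bases marked N left free, a match need not be the site itself. This pattern occurs before 65 of 415 absent and higher loci (15.7%), 34 of 222 absent and lower loci (15.3%), and 4202 of all 27561 promoters (15.2%). Letters this common cannot show whether true EIN3 sites are more or less frequent before these loci.

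Of 23 jasmonate genes 3 were higher (13.04% of the list, against 2.07% of annotated loci) and 4 lower (17.39%, against 1.25%). The higher ones were LOX2 (381 reads in ein3eil1 Cd roots and 125 in ein3eil1 control roots, 3.08-fold, 2.51 to 3.80) and AOC2 (247 reads in Cd and 79 in control roots, 3.16-fold, 2.45 to 4.13), both enzymes of synthesis, and VSP2, a storage protein that jasmonate induces (34 reads in Cd and 1 in control roots). The lower ones were the repressors JAZ7 (124 reads in ein3eil1 Cd roots and 317 in ein3eil1 control roots, 2.53-fold lower, 2.05 to 3.14), JAZ8 (69 reads in Cd and 179 in control roots) and JAZ10 (12 reads in Cd and 46 in control roots), and LOX3 (441 reads in Cd and 998 in control roots). All but LOX3 are absent from the Col table. The remaining 16 are not listed, AOS and OPR3 among them.

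Among the defence and wound genes with the largest ratios were some with few reads in control roots. JAL23, a jacalin-type lectin, had 33 reads in ein3eil1 Cd roots and 0 in ein3eil1 control roots, at least 11.1-fold higher with 0 set to 3 reads, while its counting interval begins at 8.55-fold. MLP423, a major latex-like protein, had 67 reads in Cd and 6 in control roots, 11.3-fold higher (4.93 to 31.9). NATA1, an acetyltransferase induced by jasmonate that works on ornithine, had 58 reads in Cd and 3 in control roots, 19.6-fold higher (6.37 to 97.6). The jasmonate and defence function as a whole held 8 higher and 10 lower models absent from the Col table.

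Of 12 models of hormone genes 9 were higher, 75.0% against 62.4% of all members. YAP169, a gibberellin 20-oxidase of gibberellin synthesis, had 232 reads (8.59 RPKM) in ein3eil1 Cd roots and 87 (3.19 RPKM) in ein3eil1 control roots, 2.70-fold higher (2.099 to 3.49). GA2OX2, which inactivates gibberellin, had 36 reads in Cd and 10 in control roots. AT5G42560, an HVA22-family protein, had 62 reads in Cd and 19 in control roots, and AT1G29420, an auxin-responsive SAUR protein, had 52 reads in Cd and 18 in control roots. In the list for touch and calcium, 1 of 20 members was higher (5.0%, against 2.07% of annotated loci) and 1 lower (5.0%, against 1.25%). The other 18 are not listed. CML41, a calmodulin-like protein, had 39 reads in ein3eil1 Cd roots and 8 in ein3eil1 control roots. WRKY40, an early stress factor, had 1513 reads (75.4 RPKM) in ein3eil1 Cd roots and 3643 (179 RPKM) in ein3eil1 control roots, 2.38-fold lower (2.24 to 2.53).

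Calcium-binding proteins outside that list included AT4G26470 (48 reads in ein3eil1 Cd roots and 11 in ein3eil1 control roots), AT1G76640 (319 reads in Cd and 871 in control roots, 2.70-fold lower, 2.37 to 3.08) and the phosphotriesterase relative AT3G57020 (53 reads in Cd and 20 in control roots). Of 21 drought, cold and abscisic acid genes 1 was lower (4.76%, against 1.25% of annotated loci) and 20 are not listed. The lower one, CBF2, had 166 reads in ein3eil1 Cd roots and 408 in ein3eil1 control roots, 2.43-fold lower (2.02 to 2.93). CBF2 and DDF1 belong to the same family of AP2 factors. Late embryogenesis abundant proteins went both ways: AT5G21130 had 58 reads in Cd and 12 in control roots, AT4G23930 had 70 reads in Cd and 31 in control roots, and AT2G27080 had 503 reads in Cd and 1045 in control roots.

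Cell wall models numbered 58, of which 40 are absent from the Col table (26 higher, 14 lower). XTH7 and XTH26, which cut and rejoin xyloglucan, had 121 and 147 reads in ein3eil1 Cd roots, against 22 and 31 in ein3eil1 control roots. XTH7 was 5.56-fold higher (3.51 to 9.20) and XTH26 4.80-fold higher (3.24 to 7.31). LAC12, a laccase of the lignin-oxidising family, had 272 reads in ein3eil1 Cd roots and 56 in ein3eil1 control roots, 4.91-fold higher (3.67 to 6.67). AT5G46960, a pectin methylesterase inhibitor relative, had 30 reads in Cd and 2 in control roots.

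Peroxidases absent from the Col table were all 4 higher. ALPHA-DOX1, a dioxygenase that starts fatty acid alpha-oxidation, had 7731 reads (204 RPKM) in ein3eil1 Cd roots and 3072 (80.2 RPKM) in ein3eil1 control roots, 2.55-fold higher (2.44 to 2.65). AT4G11290 had 6782 reads (335 RPKM) in ein3eil1 Cd roots and 3322 (162 RPKM) in ein3eil1 control roots, 2.06-fold higher (1.98 to 2.15). AT2G41480 had 523 reads in Cd and 233 in control roots and PRX52, linked to lignin, had 91 reads in Cd and 36 in control roots.

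Detoxifying enzymes followed. Of the 5 glutathione S-transferases absent from the Col table, GSTU16 (91 reads in ein3eil1 Cd roots and 29 in ein3eil1 control roots), GSTU5 (771 reads in Cd and 320 in control roots) and GSTU27 (3799 reads in Cd and 1769 in control roots) of the tau class were among the 4 higher, and GSTF14 of the phi class was lower, with 1231 reads in Cd and 3183 in control roots, 2.56-fold (2.39 to 2.73). The 4 models of alkenal reductases and their zinc-binding dehydrogenase relatives, which reduce reactive carbonyls from lipid oxidation, were all higher and all absent. AT5G37980 had 69 reads in ein3eil1 Cd roots and 9 in ein3eil1 control roots, 7.75-fold higher (3.86 to 17.7). AT5G17000 had 1369 reads in Cd and 586 in control roots, AT5G38000 378 reads in Cd and 172 in control roots, and AER 383 reads in Cd and 193 in control roots. Redox models included PDIL2-1, a protein disulfide isomerase (50 reads in Cd and 5 in control roots). Its locus has 4 reference transcripts, so a shift of reads between its models cannot be told apart from a change of the locus. GSTL1 had 47 reads in Cd and 12 in control roots, and the glutaredoxin ROXY2 had 13 reads in Cd and 42 in control roots.

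Glycosyltransferases, which attach sugars to hormones, flavonoids and foreign compounds, held 10 higher and 2 lower absent models. AT2G22590 had 226 reads in ein3eil1 Cd roots and 45 in ein3eil1 control roots, 5.08-fold higher (3.68 to 7.16). UGT84A3, which works on phenylpropanoid acids, had 168 reads in Cd and 49 in control roots, and UGT87A2 had 50 reads in Cd and 11 in control roots. Among cytochromes P450, CYP72A8 had 109 reads in Cd and 17 in control roots, 6.48-fold higher (3.87 to 11.5), and CYP706A6 had 44 reads in Cd and 6 in control roots. CYP708A2, of the thalianol gene cluster, had 61 reads in Cd and 13 in control roots in its model AT5G48000.5. Its cluster neighbour THAS1, the thalianol synthase, had 788 reads in Cd and 371 in control roots, 2.15-fold higher (1.90 to 2.44). The cluster was picked as a list after these values were seen, and its other 2 members are not listed.

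Lipid genes included AT5MAT by the wording of its description, LTPG2, a lipid transfer protein anchored at the cell surface (69 reads in ein3eil1 Cd roots and 20 in ein3eil1 control roots), and the glycolipid transfer protein GLTP1 (21 reads in Cd and 69 in control roots). Transporters absent from the Col table were 17 higher and 3 lower. The 4 with the largest ratios and 30 reads or more were low in reads: AT2G17500, an auxin efflux carrier relative (35 reads in ein3eil1 Cd roots and 4 in ein3eil1 control roots), CAT5, a cationic amino acid transporter (33 reads in Cd and 4 in control roots), AT1G33110, a MATE exporter (35 reads in Cd and 6 in control roots), and the borate transporter BOR5 (43 reads in Cd and 8 in control roots). CAT5 stands at 1.02 RPKM in ein3eil1 Cd roots, just inside the 1 RPKM rule, as does ERD6 with 32 reads in Cd and 7 in control roots. AT1G72130, with 31 reads in Cd and 8 in control roots, and AT5G54700, with 24 reads in Cd and 1 in control roots, fall just outside it at 0.989 and 0.990 RPKM.

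The 4 listed water channels were lower. NIP2;1 is the absent one. PIP2F, a plasma membrane channel, had 949 reads in ein3eil1 Cd roots and 2129 in ein3eil1 control roots, 2.22-fold lower (2.05 to 2.397), and TIP2;3 of the tonoplast had 841 reads in Cd and 1777 in control roots. SIP2;1, in its second model, had 25 reads in Cd and 79 in control roots. In the nitrogen list of 14, 2 were higher (14.3%, against 2.07% of annotated loci) and 1 lower (7.14%, against 1.25%). NRT1.8, which unloads nitrate from xylem, had 700 reads in Cd and 157 in control roots. NRT2.4, a high-affinity transporter, had 141 reads in Cd and 50 in control roots. NRT3.1, the partner of the high-affinity transporters, had 265 reads in Cd and 709 in control roots. CNX2, which makes the molybdenum cofactor that nitrate reductase needs, had 31 reads in Cd and 4 in control roots in its second model and is absent from the Col table.

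Among transcription factors absent from the Col table, 27 were higher and 20 lower. WRKY62, a defence regulator, had 26 reads (1.59 RPKM) in ein3eil1 Cd roots and 156 (9.41 RPKM) in ein3eil1 control roots, 5.93-fold lower (3.90 to 9.37). HB33, a zinc-finger homeodomain factor, had 34 reads in Cd and 6 in control roots, and AT2G27580, an A20/AN1 zinc finger protein, had 33 reads in Cd and 6 in control roots. DDF1 was 4.35-fold lower (3.39 to 5.63). Protein kinases divided 8 higher and 9 lower: CIPK15, a calcium-linked kinase, had 58 reads in Cd and 6 in control roots, AT1G63600 had 59 reads in Cd and 13 in control roots, AT2G24130, a leucine-rich repeat receptor kinase, had 12 reads in Cd and 100 in control roots, and NET3C, an actin-binding protein sorted here by its wording, had 6 reads in Cd and 30 in control roots. The 3 absent protein phosphatases were all higher, with PP2A-1 at 181 reads in Cd and 54 in control roots, AT4G38520 at 139 reads in Cd and 55 in control roots, and AT1G67820 at 179 reads in Cd and 89 in control roots. The shared phosphatase AT4G32950 had 131 reads in Cd and 40 in control roots.

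Ubiquitin and proteolysis genes absent from the Col table were 22 higher and 8 lower. AT1G06630, an F-box protein, had 30 reads in ein3eil1 Cd roots and 5 in ein3eil1 control roots in its second model. NANA, an aspartyl protease of plastids, had 94 reads in Cd and 26 in control roots in its second model, 3.66-fold higher (2.35 to 5.88). AT2G34000, a RING protein, had 7 reads in Cd and 32 in control roots, and AT1G08750, a peptidase, 14 reads in Cd and 46 in control roots. In vesicle traffic, VAMP727, which guides fusion with the vacuole, had 117 reads in Cd and 29 in control roots, 4.08-fold higher (2.70 to 6.36), and the small GTPases SGP1 (293 reads in Cd and 127 in control roots) and RABB1B (271 reads in Cd and 125 in control roots) were higher as well. In mitochondria, AT2G19680, a subunit of ATP synthase, had 214 reads in Cd and 93 in control roots.

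Noncoding RNAs absent from the Col table were 9 higher and 3 lower. AT1G79075 had 625 reads (128 RPKM) in ein3eil1 Cd roots and 216 (43.8 RPKM) in ein3eil1 control roots, AT3G52748 had 280 reads in Cd and 105 in control roots, and the small nucleolar RNA AT4G39364 had 13 reads in Cd and 45 in control roots. The labels do not say that strand was kept, so reads of an RNA and its antisense partner cannot be told apart. Chromatin genes were 3 higher and 3 lower, all absent: HDA2, a histone deacetylase (44 reads in Cd and 9 in control roots), CHR17, a remodelling ATPase (102 reads in Cd and 29 in control roots), HTR12, the histone of centromeres (25 reads in Cd and 86 in control roots), and AT1G07820, a histone (113 reads in Cd and 304 in control roots). Transposon-related models were AT3G24255 (128 reads in Cd and 59 in control roots), CYTOSLEEPER (547 reads in Cd and 219 in control roots, shared), AT5G44925 (47 reads in Cd and 105 in control roots) and AT4G06477 (84 reads in Cd and 468 in control roots, 5.51-fold lower, 4.36 to 7.03).

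Models of unknown or unsorted function held some of the largest ratios at low reads. AT5G04080 had 47 reads in ein3eil1 Cd roots and 1 in ein3eil1 control roots in its second model. AT5G42530 had 58 reads in Cd and 5 in control roots, and AT4G37290 had 32 reads in Cd and 4 in control roots. kdsA1, which makes a sugar acid of pectin, had 90 reads in Cd and 2 in control roots, 45.5-fold higher (12.2 to 382). kdsA1 has 4 reference transcripts and AT5G04080 has 3, and only 1 model of each was listed.

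Models numbered above 1 within their locus were 109 of the 669 absent ones (16.3%) and 10 of the 283 shared ones (3.53%). Loci with several reference transcripts gave 58.7% of absent higher, 42.7% of absent lower, 32.5% of shared higher and 35.7% of shared lower models. The part of read division between models in these counts was not tested. At any named locus with several reference transcripts, such a division cannot be told apart from a change of the locus. With loci of 1 reference transcript alone, 176 absent models were higher and 129 lower, against 437 and 232 over all absent models. At 11 loci several models are listed, in the same direction at 10. The exception was SEC61 BETA, a subunit of the protein import channel of the endoplasmic reticulum: the model AT2G45070.4 had 544 reads in ein3eil1 Cd roots and 1404 in ein3eil1 control roots, and AT2G45070.3 had 175 reads in Cd and 74 in control roots.

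Some listed genes lie next to each other. Of 914 member loci placed in gene order, 46 pairs were direct neighbours, 34 in the same direction and 12 in opposite directions. Among pairs with both genes absent from the Col table, 11 of 16 shared the direction, including CYP708A2 and THAS1, and ICL and AT3G21710. CYP89A7 with CYP89A6, and AT3G19000 with AT3G19010, are tandem relatives and were higher on both sides of each pair. Pairs named here were chosen after their values were seen, and near-identical neighbours may share reads.

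Few markers of root cell types are listed. CASP2, a membrane protein of the endodermal Casparian strip, was lower, with 751 reads in ein3eil1 Cd roots and 1635 in ein3eil1 control roots. XCP2, a xylem protease, was 1 of 6 xylem markers, with 1870 reads in Cd and 4252 in control roots, 2.25-fold lower (2.13 to 2.38), and is absent from the Col table. PRP1, a root hair wall protein, was 1 of 7 root hair markers, with 1436 reads in Cd and 483 in control roots, 3.01-fold higher (2.71 to 3.34), and is absent as well. SESA4, a seed storage albumin, was 1 of 10 seed markers, with 29 reads in Cd and 133 in control roots. No phloem or root cap marker is listed. Of 5 meristem markers 4 are not listed, and the cytokinin receptor gene WOL is listed below the 1 RPKM rule, at 0.114 RPKM in Cd roots and 0.708 RPKM in control roots. Fewer cells of a type and less RNA per cell cannot be told apart in these bulk libraries.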

How the data were processed

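Roots of Arabidopsis thaliana were sequenced with 1 library per condition, and both ein3eil1 libraries enter the comparison. Per the file headers, the authors deposited for each gene model the read count, the RPKM (a model with 0 reads entered as 0.001), the log2 ratio of cadmium to control, a P-value and an FDR, and a description. The deposited ein3eil1 rows all have a log2 ratio of at least 1 in size and an FDR (adjusted p-value) of at most 0.000986612; models outside that are not analysed here. No source used here names the aligner, the counting rule or the genome build. Library totals recovered from reads, length and RPKM were 16802110 reads in ein3eil1 Cd and 16993296 in ein3eil1 control. A count of 0 was set to a floor of 3 reads.

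With 1 library per condition no test across samples was possible, and no p-value was made. Ratios are of the deposited RPKM, with 95% Clopper-Pearson intervals from both read counts (SciPy 1.17.1, checked on simulated reads); PCR copies are not independent, so they cover counting error only. Functions came from patterns on the description; the members and lists were chosen with earlier results of these data known, and the patterns and several lists, the low-oxygen one among them, were edited after the files were seen. Named genes, 1 model per locus, are the 12 highest and 12 lowest absent from the Col table with 10 RPKM or more, up to 4 with 30 reads or more per function and list (absent first, then by ratio), the 5 ends of the table and EIN3 and EIL1; others are said to be chosen after their values were seen or complete a list. Of the 952 members 951 matched RefSeq loci, and the deposited coordinates of all 951 overlap the TAIR10.1 locus of that name on the same strand. Promoters are the 300 bases before the gene starts of that annotation, 27561 in all. Some named genes and a promoter sequence are not reported here.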

Additional observations from a re-analysis of the deposited data

Results flagged for a closer look

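Among the named genes, 4 are listed in both tables with opposite directions; the difference between the genotypes was not tested, with 1 library per condition. SAD6, a stearoyl desaturase also in the low-oxygen list, had a log2 ratio of -3.46 in ein3eil1 roots (52 reads with Cd and 579 in control) and 1.16 in Col roots (133 reads with Cd and 68 in control). MT2A, a metallothionein, had 1.13 in ein3eil1 roots (719 reads with Cd and 333 in control) and -1.28 in Col roots (449 reads with Cd and 1247 in control). SIP2;1, an aquaporin, had -1.64 in ein3eil1 roots (25 reads with Cd and 79 in control) and 1.47 in Col roots (68 reads with Cd and 28 in control). NRT3.1, the partner protein of nitrate transporters, had -1.40 in ein3eil1 roots (265 reads with Cd and 709 in control) and 1.67 in Col roots (615 reads with Cd and 221 in control). Over all members, 27 of the 283 models in both tables are listed in opposite directions.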

How the results depend on the processing

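All counts below are of models higher and lower, with those absent from the Col table second. A 4-fold threshold gave 149 and 80 (absent: 90 and 36). An interval wholly beyond 2-fold gave 285 and 182 (absent: 173 and 96). Loci with 1 reference transcript, an alternative chosen after seeing the data, gave 280 and 210 (absent: 176 and 129). A minimum of 5 RPKM gave 362 higher (absent: 240), a pseudocount of 1 RPKM 386 higher (absent: 255) and centring 133 higher (absent: 81). The lower counts stayed within 1.5 times at 5 RPKM and with the pseudocount. Under centring the lower counts could not change, because a positive median is subtracted from ratios that are all at least 2-fold. The other alternatives (no minimum, an FDR of 1e-05, 1 model per locus, absence by locus) kept all counts within 1.5 times. Centring turned 11 named genes just over 2-fold to the other sign: AT1G67820 to -0.140, MT2A to -0.0379, MT3 to -0.0868, AT3G24255 to -0.0310, GSTU27 to -0.0457, AT4G11290 to -0.119, RABB1B to -0.0320, AER to -0.160, AT5G38000 to -0.0124, THAS1 to -0.0616 and NSP5 to -0.0144. Another 135 of 183 named models kept their sign under centring but left their counting interval. The pseudocount turned none but took 65 outside their interval and 28 under 2-fold, the log2 ratio of BIP3 being 1.57 in place of 4.72 and that of VSP2 1.22 in place of 5.10. Of 87 counts by function or list, 14 left that margin at the stricter FDR, 30 at 5 RPKM, 42 under centring and 80 at 4-fold, and 0 with 1 model per locus. No paired analysis was possible because each condition has 1 library, and no library could be left out. Depth limits the low-read models: the interval of HMA3, with 27 reads in Cd and 63 in control roots, runs from 1.45-fold to 3.77-fold lower.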
